A study of Mus musculus with 10 samples.

Results

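The IgG3 heavy-chain compartment was described in deep cervical lymph nodes of glioma-bearing mice. Its members were productive heavy-chain sequences whose constant call named IGHG3 and no other gene, grouped into clonotypes by V gene, J gene and junction nucleotides. A clonotype held by several mice was given to the mouse with its most IgG3 counts. This left 615 IgG3 clonotypes of 281761 heavy-chain clonotypes in 10 mice, drawn from 1326 IgG3 sequences of 313384 productive heavy-chain sequences. The other IgG subclasses were larger, with 2067 IgG2b, 1375 IgG2a/c and 1186 IgG1 clonotypes. IgG2a/c stands here for sequences called IGHG2C, since IGHG2A was not among the calls.

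All mice were C57BL/6 wild type, carried GL261 cells, a mouse glioma line, injected into the brain, and were examined on day 20. Of the 10 mice, 5 received an isotype control IgG and 5 an anti-CTLA-4 antibody, which blocks a receptor that restrains T cells. The nodes of each mouse were dissociated, RNA was taken from whole cells with no B cell sort named in the labels, and 1 receptor library was made per mouse, so the mouse is the replicate. The labels give neither the ages of the mice nor the dose of either antibody. In bulk RNA, fewer cells of a class and less receptor RNA per cell cannot be told apart.

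IgG3 is the first IgG gene downstream of IgM and IgD in the mouse heavy-chain locus, so a B cell that switches to IgG3 can later switch again to IgG1, IgG2b or IgG2a/c. It is known for antibodies to carbohydrate and other repetitive antigens, made by B-1 and marginal zone B cells as well as by conventional B cells. A junction is the stretch from the conserved cysteine codon of the V gene to the conserved tryptophan codon of the J gene. It surrounds CDR3, the loop at which V, D and J meet.

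The results turned on a few junctions, which are given here from the deposited sequences, 5′ to 3′. The first set holds large clonotypes. Capitals mark the bases between the V and J segments as aligned in the deposited data. They hold D gene bases and added nucleotides, but D gene bases can also lie in the lower-case parts. In the IGHV1-5 junction, for example, agtag after TACGGT is in lower case. The IGHV9-3 and IGHV3-8 junctions, with the same D call, IGHD1-1, have these bases in capitals.

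IGHV1-5, IGHJ1, anti-CTLA-4 mouse 1: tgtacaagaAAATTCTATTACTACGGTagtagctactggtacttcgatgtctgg
IGHV9-3, IGHJ1, anti-CTLA-4 mouse 1: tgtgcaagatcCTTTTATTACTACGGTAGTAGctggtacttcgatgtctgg
IGHV3-8, IGHJ4, isotype mouse 1: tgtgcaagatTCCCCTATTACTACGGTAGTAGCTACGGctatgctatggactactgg
IGHV14-4, IGHJ4, anti-CTLA-4 mouse 3: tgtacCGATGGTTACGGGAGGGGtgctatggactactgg
IGHV11-2, IGHJ1, isotype mouse 1: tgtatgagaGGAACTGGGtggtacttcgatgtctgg

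The second set holds IGHV4-1 clonotypes whose junctions resemble each other across mice. Capitals mark bases 13 to 24, counted from 1 at the 5′ end of the junction, which are the codons 5 to 8 and read GGN, TAN, TAN and GGN in turn. This pattern was noticed in these junctions and then counted. Clonotypes are numbered within a mouse from the most to the fewest IgG3 counts.

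Isotype 1, clonotype 1, IGHJ1: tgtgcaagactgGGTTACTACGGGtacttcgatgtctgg
Isotype 2, clonotype 3, IGHJ2: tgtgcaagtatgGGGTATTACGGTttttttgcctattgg
Isotype 3, clonotype 2, IGHJ4: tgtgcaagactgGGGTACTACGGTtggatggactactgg
Isotype 4, clonotype 1, IGHJ1: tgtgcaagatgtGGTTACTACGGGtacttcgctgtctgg
Isotype 5, clonotype 1, IGHJ1: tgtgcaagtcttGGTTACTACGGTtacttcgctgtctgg
Isotype 5, clonotype 3, IGHJ1: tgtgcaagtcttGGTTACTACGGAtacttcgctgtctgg
Anti-CTLA-4 1, clonotype 1, IGHJ3: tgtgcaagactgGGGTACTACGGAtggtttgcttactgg
Anti-CTLA-4 3, clonotype 1, IGHJ1: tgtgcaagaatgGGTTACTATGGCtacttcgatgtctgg
Anti-CTLA-4 4, clonotype 1, IGHJ1: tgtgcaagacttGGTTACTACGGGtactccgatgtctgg

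The third set holds the most counted members of a pair of mutated lineages. A lineage is a group of clonotypes of a mouse that share V and J genes and junction length. Its members are linked in a chain of pairs with at least 90% junction identity, so not every pair needs to reach 90%. Capitals mark bases that differ among the members shown.

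IGHV5-16, isotype mouse 4, 35 IgG3 counts: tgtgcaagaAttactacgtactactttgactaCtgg
IGHV5-16, isotype mouse 4, 8 IgG3 counts: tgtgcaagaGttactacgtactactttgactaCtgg
IGHV5-16, isotype mouse 4, 6 IgG3 counts: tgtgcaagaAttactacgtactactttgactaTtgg
IGHV6-3, isotype mouse 2, 189 IgG3 counts: tGtAccgactaCggtagtacctactgg
IGHV6-3, isotype mouse 2, 31 IgG3 counts: tGtTccgactaCggtagtacctactgg
IGHV6-3, isotype mouse 2, 5 IgG3 counts: tAtAccgactaTggtagtacctactgg

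The libraries held deposited counts of 382184 to 790139 per mouse, and productive heavy chains took 159157 to 362445 of them. IgG3 took 238 to 54136 counts per mouse before clonotypes were assigned to 1 mouse. Whether these are counts of reads or of tagged molecules is not given in the labels, so intervals and limits cover only the error of counting. IgG3 is a call made by the authors' software, and the columns that would hold the score of the constant-region alignment are blank in the files. Only 4 further sequences named IGHG3 jointly with another gene.

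Libraries shared IgG3 clonotypes. Of the 615 clonotypes, 33 occurred in more than 1 mouse: 30 in 2 mice, 2 in 3 mice and 1 in 5 mice. None of the 33 occurred in mice of both groups. Of the 30 found in 2 mice, 27 lay in mice with consecutive replicate numbers of 1 group, such as 10 in anti-CTLA-4 mice 3 and 4 and 7 in isotype mice 3 and 4. Assigning each to 1 mouse removed 38 entries and 60.0% of the IgG3 counts of anti-CTLA-4 mouse 2, 26.1% of those of isotype mouse 4, and at most 14.4% in any other mouse. Whether shared clonotypes arose in several mice or passed between libraries was not tested.

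The first comparison was of how much IgG3 the nodes held in each group. In anti-CTLA-4 mice 1 to 5, IgG3 made up 0.473%, 0.299%, 0.602%, 0.0963% and 0.159% of heavy-chain clonotypes. In isotype mice 1 to 5 it made up 0.176%, 0.255%, 0.171%, 0.0651% and 0.0780%. Anti-CTLA-4 mice 1, 2 and 3 lay above every isotype mouse, and mice 4 and 5 lay inside the isotype range. The means were 0.326% ± 0.212 (SD, n = 5) and 0.149% ± 0.0783 (SD, n = 5), a difference within the spread between mice (exact permutation test, 2-sided like the others, p = 0.119, adjusted p = 0.392 over 4 abundance measures). Mice of a group differed by more than the error of counting: the 95% exact Clopper-Pearson interval ran from 0.0681% to 0.132% in anti-CTLA-4 mouse 4 and from 0.501% to 0.718% in mouse 3.

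Relative to the other subclasses, IgG3 overlapped between the groups. It formed 12.2% ± 3.61 (SD, n = 5) of IgG clonotypes after anti-CTLA-4 and 11.5% ± 3.28 (SD, n = 5) with isotype (exact permutation p = 0.794). By counts, it formed 7.12% ± 7.33 and 3.04% ± 1.48 of IgG (SD, n = 5 each, exact permutation p = 0.294, adjusted p = 0.392), and the groups overlapped. IgG3 took 14.98% of all heavy-chain counts in anti-CTLA-4 mouse 1 and 3.72% in mouse 3, against 0.119% to 1.76% in isotype mice. The other 3 anti-CTLA-4 mice, at 0.314% to 0.754%, lay within the isotype range. The mean difference was 3.398 percentage points (exact permutation p = 0.246, adjusted p = 0.392), and without anti-CTLA-4 mouse 1 it was 0.676 points. When each mouse kept every clonotype it held, the means by clonotypes were 0.342% and 0.157%.

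**Figure D1:**
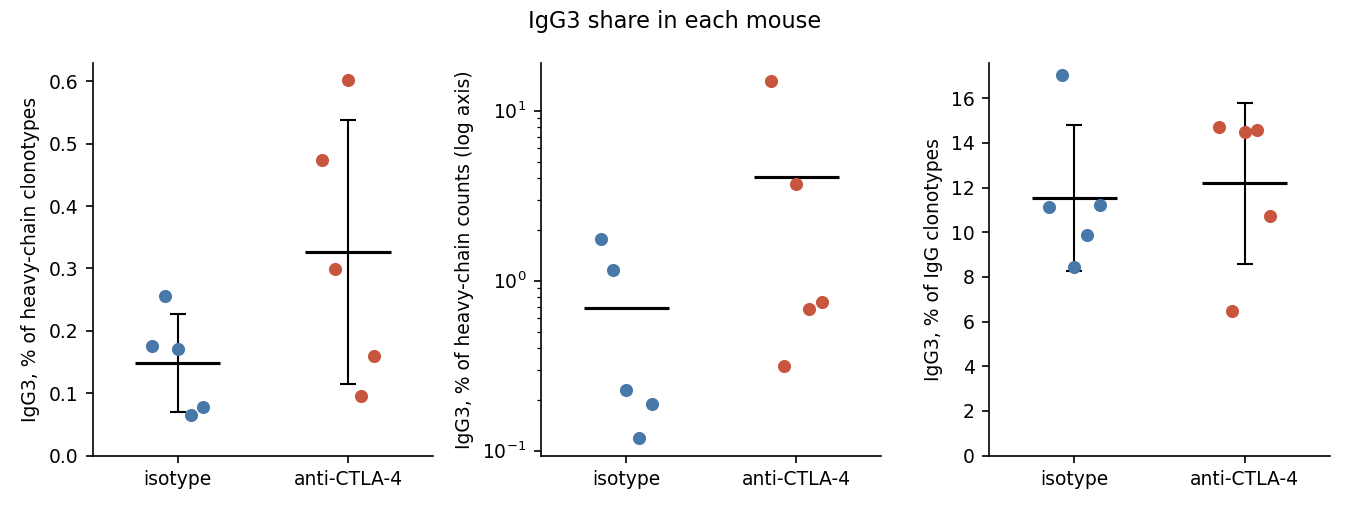
IgG3 as a percentage of heavy-chain clonotypes (left), of heavy-chain counts (middle, log axis) and of IgG clonotypes (right) in each mouse, with blue points for isotype and red points for anti-CTLA-4 mice. Bars are means over 5 mice, and error bars, drawn left and right, are 1 SD. The anti-CTLA-4 mean by clonotypes is 0.326% against 0.149%, and the groups overlap in all panels.

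Clone sizes were uneven. Of the 615 clonotypes, 192 (31.2%) had an IgG3 count of 1, the median count was 3, and 59 had 100 or more. The leading IgG3 clonotype took between 17.0% and 69.0% of the IgG3 counts of an isotype mouse and between 22.8% and 69.9% of those of an anti-CTLA-4 mouse. Neither this share nor the evenness of IgG3 counts differed beyond the spread between mice (exact permutation p = 0.714 and 0.595).

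The clonotype with the most IgG3 counts used IGHV1-5 and IGHJ1. In anti-CTLA-4 mouse 1 it had 37838 IgG3, 24797 IgG2a/c, 11386 IgG2b, 556 IgG1 and 93 IgM counts, with no V mismatch. The same junction had 800, 94, 58 and 63 IgG3 counts in anti-CTLA-4 mice 2, 3, 4 and 5, and IgG3 led in each. Beside these the junction had 289 IgG2b and 630 IgG2a/c counts in mouse 2, and 16 and 55 in mouse 3, in the same order as in mouse 1. It had 1 IgG2b count in mouse 4 and none in mouse 5, and 0 IgG2a/c counts in both.

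The IGHV9-3 clonotype of the same mouse was nearly all IgG3, with 5051 IgG3, 120 IgG2b, 55 IgG2a/c, 11 IgG1 and 49 IgM counts. Its junction also occurred with 91 IgG3 counts in mouse 2 and 57 in mouse 5. IGHV1-50 with IGHJ1 led in anti-CTLA-4 mouse 5, with 503 IgG3, 12 IgG2b, 6 IgG2a/c and 16 IgM counts. IGHV1-80 led in isotype mouse 4 with 100 IgG3 counts and 2 IgG2a/c counts. In these 3 clonotypes at least 93.7% of all counts were IgG3.

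Other leading clonotypes were spread over subclasses. IGHV3-8 in isotype mouse 1 had 2809 IgG3, 3319 IgG1, 2514 IgG2a/c and 2504 IgG2b counts, near-equal parts of an unmutated clone. IGHV14-4 in anti-CTLA-4 mouse 3 had 2559 IgG3 counts beside 9116 IgG1, 6125 IgG2a/c and 4008 IgG2b counts. IGHV1-66 in anti-CTLA-4 mouse 4 had most of its counts as IgM, 1033 against 599 IgG3. A separate IGHV14-4 clonotype in anti-CTLA-4 mouse 2 had 230 IgG3 and 135 IgG1 counts, IGHV1-26 in isotype mouse 3 had 149 IgG3 and 43 IgG2b counts, and IGHV1-69 in isotype mouse 2 had 487 IgG3 and 1215 IgG2a/c counts.

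**Figure D2:**
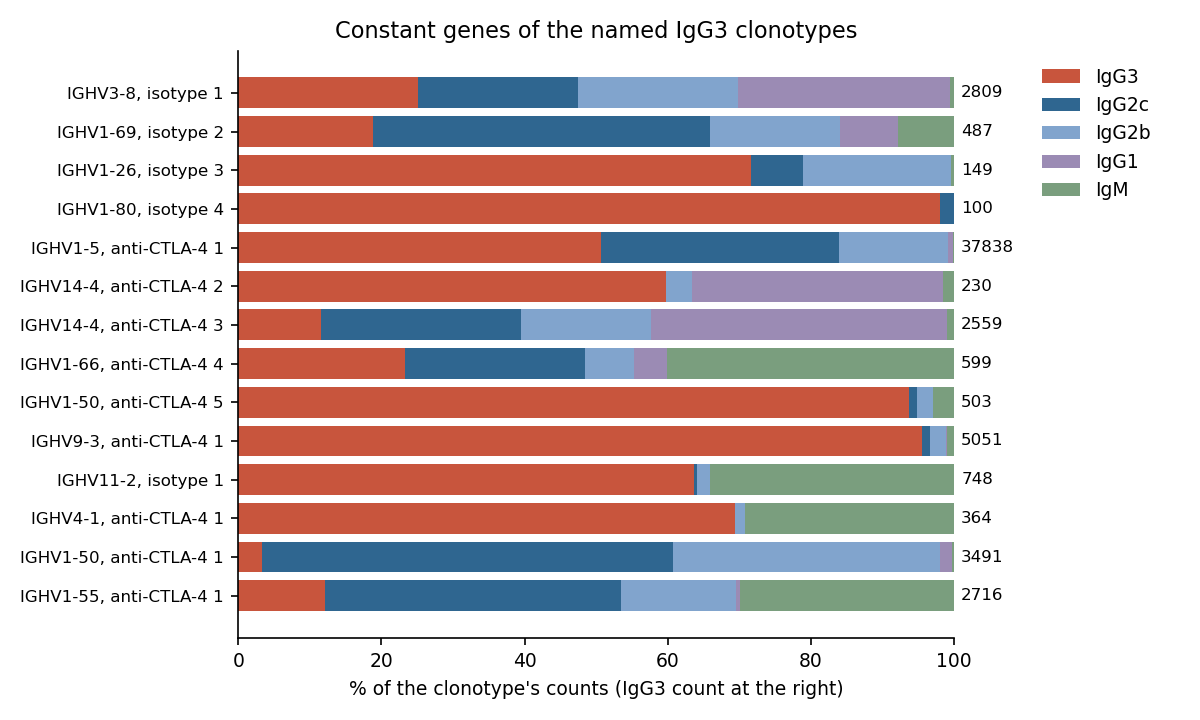
Constant genes of 14 IgG3 clonotypes: the leading clonotype of 9 of the 10 mice, then further ones among the 5 largest IgG3-led clonotypes or the 5 found in most mice. Bar length is the percentage of the clonotype's deposited counts per constant gene, and the IgG3 count stands at the right. IGHV9-3 and IGHV1-80 are nearly all IgG3, whereas IGHV1-50 with IGHJ2 in anti-CTLA-4 mouse 1 (3491 IgG3 counts) is mostly IgG2a/c and IgG2b.

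The next question was how often IgG3 was the main form of a clonotype and how often a minor copy of another class. A clonotype was called led by the constant gene with the most counts on its V gene, J gene and junction in that mouse. IgG3 led 321 of the 615 clonotypes (52.2%), IgG2a/c led 101 and IgM 91, IgG2b led 45, IgG1 19, IgE 12 and IgA 9, and 17 were ties. In 262 clonotypes (42.6%) no other class was seen at all, and 123 of those had a count of 1. Pooled over mice, IgG3-led clonotypes held 64.3% of the IgG3 counts, and clonotypes led by IgG2b or IgG2a/c held 23.1%. This pooled share rested on anti-CTLA-4 mouse 1, with 44257 of the 49923 IgG3-led counts, 37838 of them in the IGHV1-5 clonotype. By mouse, the IgG3-led share of IgG3 counts ran from 5.86% (anti-CTLA-4 mouse 3) to 96.0% (isotype mouse 4). The share led by IgG2b or IgG2a/c ran from 0.568% (isotype mouse 4) to 63.9% (anti-CTLA-4 mouse 5).

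The 146 minor copies of IgG2b- or IgG2a/c-led clonotypes were mostly small parts of their clones. The clonotypes that held them had a median of 610 counts over all constant genes, 63 had 1000 or more, and 29 had under 100. IgG3 made up a median of 1.47% of their counts, with a range from 0.0890% to 47.5%, and under 10% in 119 of them. In 127 of the 146 (87.0%) the most counted IgG3 sequence was identical to a sequence of the leading gene. Such a copy was seen more often in clones with more counts. A copy at a low share is easier to detect where a clone has many counts. The rise below therefore does not show that large clones hold a greater share of IgG3. With each mouse keeping every clonotype it held, IgG3 was found in 8 of 1601 clonotypes led by IgG2b or IgG2a/c with a leading count under 10. It was found in 8.27% of those from 10 to under 100, in 35.0% of those from 100 to under 1000, and in 91.4% (53 of 58) of those with 1000 or more. Whether these copies were transcripts of switched cells or arose in library preparation or in the constant call was not tested.

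Among mice, IgG3 led 43.2%, 61.9%, 55.6%, 86.7% and 66.7% of the IgG3 clonotypes of isotype mice 1 to 5, and 53.0%, 59.4%, 39.5%, 50% and 42.0% in anti-CTLA-4 mice 1 to 5. The lowest isotype mouse lay among the anti-CTLA-4 mice. The means were 48.8% ± 8.11 (SD, n = 5) after anti-CTLA-4 and 62.8% ± 16.0 (SD, n = 5) with isotype (exact permutation p = 0.111, adjusted p = 0.167 over 3 measures), and without isotype mouse 1 the difference of -18.9 points had an adjusted p of 0.0357 in the exact test. Minor copies of IgG2b- or IgG2a/c-led clonotypes made up 24.4% ± 10.3 (SD, n = 5) and 15.8% ± 10.0 (SD, n = 5) of IgG3 clonotypes, a difference within the spread between mice (exact permutation p = 0.214).

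**Figure D3:**
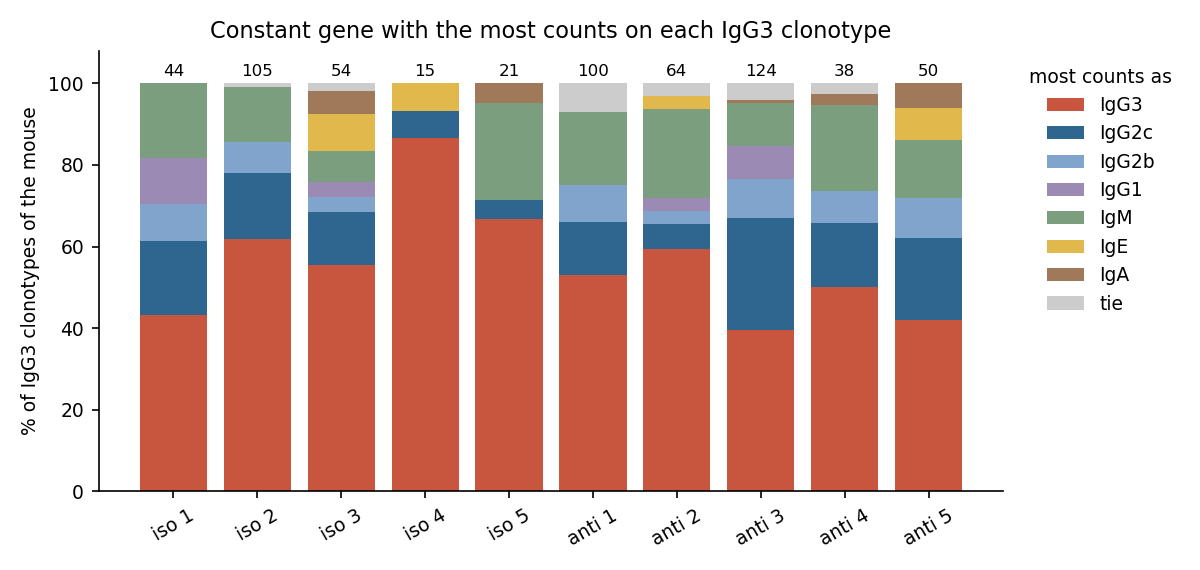
Constant gene with the most counts on each IgG3 clonotype, as a percentage of the IgG3 clonotypes of a mouse, with their number above each bar (iso, isotype; anti, anti-CTLA-4). IgG3 leads 86.7% in isotype mouse 4, which has 15 clonotypes, and 39.5% in anti-CTLA-4 mouse 3, which has 124.

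Many IgG3 clonotypes were also seen with an IgM or IgD constant gene. IgM and IgD are the classes of B cells that have not switched, and 246 of the 615 IgG3 clonotypes (40%) were also seen as IgM or IgD in the same mouse. In isotype mice 1 to 5 the share was 40.9%, 32.4%, 35.2%, 6.67% and 33.3%, and in anti-CTLA-4 mice 1 to 5 it was 41.0%, 43.8%, 48.4%, 39.5% and 46.0%. Every anti-CTLA-4 mouse but mouse 4 lay above every isotype mouse. The means were 43.7% ± 3.62 (SD, n = 5) after anti-CTLA-4 and 29.7% ± 13.3 (SD, n = 5) with isotype (p = 0.0159 by exact permutation, 0.0476 after adjustment for 3 measures; the smallest p this design can give is 0.00794). Isotype mouse 4 carried much of the difference, with 1 of 15 clonotypes (95% exact Clopper-Pearson interval 0.169% to 31.9%). Without it the difference was 8.27 points in place of 14.0 (adjusted p = 0.0952 in the exact test), the same adjusted p was reached without anti-CTLA-4 mouse 1, 2, 3 or 5, and over lineages it was 0.190. The other subclasses differed between the groups in the same direction, with means of 29.0% ± 9.46 after anti-CTLA-4 and 16.6% ± 12.2 with isotype for IgG2b, 29.6% ± 4.01 and 19.0% ± 13 for IgG2a/c, and 37.5% ± 8.34 and 21.6% ± 13.9 for IgG1 (SD, n = 5 each, not tested). Isotype mouse 4 had the lowest share of the 10 mice in all 4 subclasses, at 2.86% for IgG2b, 3.13% for IgG2a/c and 5.71% for IgG1. When each mouse kept every clonotype it held, the means were 43.0% ± 2.94 and 31.8% ± 9.98, with the same adjusted p of 0.0476 in the exact test.

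IgG3 clonotypes were also seen as IgM or IgD more often than IgG2b and IgG2a/c clonotypes of the same mice. The share averaged 36.7% ± 11.8 (SD, n = 10) for IgG3, 22.8% ± 12.2 for IgG2b, 24.3% ± 10.7 for IgG2a/c and 29.6% ± 13.6 for IgG1. IgG3 exceeded IgG2b by 13.9 points and IgG2a/c by 12.4 points, each in 10 of 10 mice (exact sign-flip permutation over 10 mice, adjusted p = 0.0146 for both over 15 tests). It exceeded IgG1 by 7.16 points in 8 of 10 mice, which did not pass (adjusted p = 0.172, exact). A clonotype with 2 such subclasses counted in both shares.

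The size of the clone bears on this share. With 1 switched count, 15.8% of IgG3 and 10.6% of IgG2b clonotypes were also seen as IgM or IgD. With 1000 or more switched counts, the shares were 77.4% of 93 IgG3 clonotypes, 54.4% of 169 IgG2b, 61.0% of 141 IgG2a/c and 61.7% of 149 IgG1 clonotypes. These shares were pooled over mice and not tested. The IgG3 share was the highest of the 4 subclasses in each of 5 size bands. It was close to the others from 2 to 9 switched counts, at 27.3% against 25.2% to 26.3%. Among clonotypes led by their own subclass, the shares were lower and close together, at 10.6% ± 6.33 for IgG3, 7.93% ± 5.70 for IgG2b and 10.6% ± 6.12 for IgG2a/c (SD, n = 10). There, IgG3 exceeded IgG2b by 2.68 points and IgG2a/c by 0.0656 points, and neither difference passed (adjusted p = 0.520 and 0.965, exact sign-flip permutation). The difference between subclasses was thus found over all clonotypes, which include minor copies in IgM-led and other large clones, and not among those that the subclass led.

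**Figure D4:**
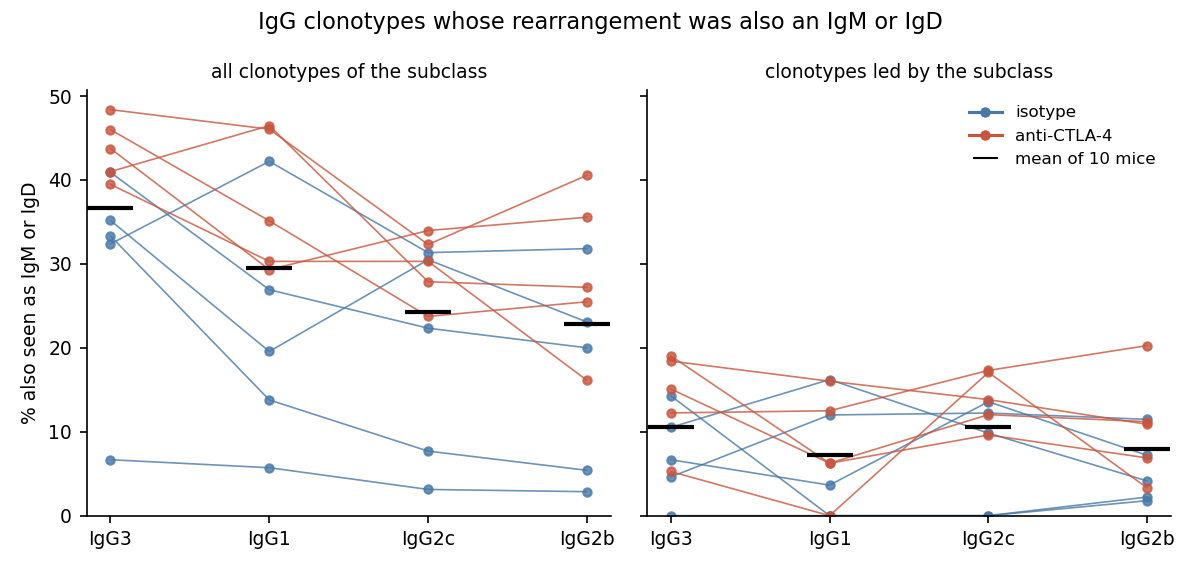
Percentage of clonotypes of each IgG subclass whose V gene, J gene and junction were also seen as IgM or IgD in the same mouse, for all clonotypes (left) and those led by the subclass (right). Lines join the values of 1 mouse (blue isotype, red anti-CTLA-4), and black bars are means of 10 mice. On the left IgG3 averages 36.7% against 22.8% for IgG2b, and on the right 10.6% against 7.93%.

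V mismatches, counted against the germline V sequence over at least 200 aligned nucleotides, are where somatic hypermutation shows, and errors of copying and sequencing count among them too. Of the 615 IgG3 clonotypes, 342 had none, 144 had 1 or 2, 113 had 3 to 9, and 16 had 10 or more. The mean per mouse was 0.556 ± 0.277 mismatches per 100 nucleotides (SD, n = 5) after anti-CTLA-4 and 0.797 ± 0.412 (SD, n = 5) with isotype (exact permutation p = 0.325). Clonotypes without a mismatch made up 58.8% ± 11.6 and 46.5% ± 13.9 (exact permutation p = 0.175). Neither difference exceeded the spread between mice, and the first changed sign, to 0.0477, over IgG3-led clonotypes alone. Against IgG2b, IgG2a/c and IgG1 within mice, the mean mismatch frequency of IgG3, 0.677 ± 0.355 (SD, n = 10), also did not differ (exact sign-flip permutation, adjusted p from 0.429 to 0.557).

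The leading gene separated the IgG3 clonotypes by mutation. IgG3-led clonotypes averaged 0.920 ± 0.472 mismatches per 100 nucleotides over the 10 mice, and clonotypes led by another gene averaged 0.308 ± 0.221 (SD, n = 10). The IgG3-led mean was higher in 9 of 10 mice, and in isotype mouse 1 the means were 0.356 and 0.367. A higher mean among led clonotypes was not particular to IgG3. Led clonotypes averaged 0.899 for IgG2b, 0.674 for IgG2a/c and 0.641 for IgG1. All clonotypes of these subclasses averaged 0.743, 0.556 and 0.549, and all IgG3 clonotypes 0.677. Over all mice, 40.5% of IgG3-led clonotypes had no mismatch, against 71.9% of those led by IgG2b or IgG2a/c and 78.0% of those led by IgM. This split was looked at after other values were known and was not tested.

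All 16 clonotypes with 10 or more mismatches were IgG3-led, and they came from 8 mice and 7 V calls. Anti-CTLA-4 mice held 13 of the 16, 4 of which belonged to 1 lineage, and 61.1% of all IgG3 clonotypes. Others of the 13 also shared mouse, V call and J gene: IGHV1-53 in anti-CTLA-4 mouse 1, IGHV1-18 in mouse 2 and IGHV6-3 in mouse 5. IgG3 counts of the 16 ran from 1 to 48. The lineage, IGHV1-20 in anti-CTLA-4 mouse 4, held 4 IgG3 clonotypes with 12 or 13 mismatches each, with 62 IgG3 counts, 3 IgM counts and no other class. The highest number, 34 mismatches, belonged to a clonotype with 1 count whose V call named both IGHV1-50 and IGHV1-69.

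By lineage, the 615 clonotypes formed 412 groups, of which 331 held 1 IgG3 clonotype. The 12 lineages with 5 or more held 116 clonotypes. The IGHV6-3 lineage of isotype mouse 2, shown above, held 7 IgG3 clonotypes with 5 to 10 mismatches, 238 IgG3 counts and 11 IgG2b counts. A second IGHV6-3 lineage in that mouse held 5 IgG3 clonotypes with 3 to 6 mismatches and 261 IgG3 counts. The IGHV5-16 lineage of isotype mouse 4 held 7 IgG3 clonotypes with 7 to 12 mismatches and 59 IgG3 counts, beside 6 IgM counts and 1 IgG2b count. Each IgG3 clonotype of these 3 lineages was IgG3-led.

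Other lineages mixed classes or had few mismatches. An IGHV1-26 lineage of isotype mouse 2 held 14 IgG3 clonotypes with 0 to 5 mismatches, 122 IgG3 counts and 1 IgG2a/c count. The IGHV8-12 lineage of anti-CTLA-4 mouse 2 held the most, 19 IgG3 clonotypes, but with 57 IgG3 counts beside 242 IgM, 80 IgG2b and 81 IgG2a/c counts. The lineage of the large IGHV1-5 clone held 17 IgG3 clonotypes with 0 to 6 mismatches.

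IgG3 clonotypes used 74 V calls, and 32 clonotypes had a call that named several V genes. IGHV1-26 was the most used with 37 clonotypes (6.02%, against 4.30% of IgM clonotypes), followed by IGHV1-5 and IGHV1-55 with 30 each, IGHV8-12 with 29, IGHV9-3 with 25, and IGHV1-50 and IGHV6-3 with 23 each. Several of these numbers rested on 1 mouse: 20 of 29 IGHV8-12 clonotypes came from anti-CTLA-4 mouse 2, 18 of 30 IGHV1-5 clonotypes from anti-CTLA-4 mouse 1, and 13 of 23 IGHV6-3 clonotypes from isotype mouse 2. Of the 37 IGHV1-26 clonotypes, 16 came from isotype mouse 2, where 1 lineage held 14, so the comparison with IgM leans on that lineage. Anti-CTLA-4 mouse 1 held 14 of the 25 IGHV9-3 clonotypes. The IGHV1 family, the largest in the mouse, made up 59.6% ± 7.61 of IgG3 clonotypes after anti-CTLA-4 and 48.9% ± 10.2 with isotype (SD, n = 5 each, exact permutation p = 0.103, adjusted p = 0.325 over 4 sequence measures).

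Of the J genes, IGHJ2 was used by 36.7% ± 12.7 of IgG3 clonotypes, IGHJ4 by 24.3% ± 9.89, IGHJ3 by 20.8% ± 13.7 and IGHJ1 by 18.3% ± 8.00 (SD, n = 10). The order was the same in IgM, at 32.1%, 27.8%, 24.6% and 15.5%, with an SD of at most 0.439 among mice. Pooled over mice, IGHD1-1 was the D call of 30.6% of IgG3 and 25.7% of IgM clonotypes. It was that of 25.3% of IgG2b, 26.8% of IgG2a/c and 26.6% of IgG1 clonotypes. Clonotypes of 1 lineage each counted in these shares, and the differences were not tested. CDR3 averaged 11.8 ± 1.1 residues after anti-CTLA-4 and 11.1 ± 0.681 with isotype (SD, n = 5 each, exact permutation p = 0.270).

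B-1 cells are known for heavy chains of IGHV11-1, IGHV11-2, IGHV12-3 and IGHV7-1, which bind phosphatidylcholine or phosphorylcholine. These genes made up 3 of 615 IgG3 clonotypes (0.488%), all IGHV11-2, against 0.406% of IgM clonotypes. The other 3 genes were at 0, which allows a share of up to 0.488% for each. The largest of the 3, in isotype mouse 1, had 748 IgG3, 401 IgM, 22 IgG2b and 5 IgG2a/c counts and no V mismatch, which made it the third largest IgG3-led clonotype of all mice. The others, also IgG3-led, had 9 and 3 IgG3 counts, in isotype mouse 1 and anti-CTLA-4 mouse 5.

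V genes were then tested one by one with edgeR's quasi-likelihood test. Between anti-CTLA-4 and isotype mice, 0 of 74 V calls passed an adjusted p of 0.05 (0% called), and 2 had an unadjusted p under 0.05. DESeq2 also called 0, with 1 unadjusted p under 0.05. In simulated data of this depth the test had little power. The smallest p-values for higher numbers after anti-CTLA-4 belonged to IGHV8-12 (27 against 2 clonotypes), IGHV5-4 (7 against 0) and IGHV1-66 (5 against 0), with an adjusted p of 0.481 in edgeR for each. For lower numbers they belonged to IGHV3-5 (0 against 2), IGHV6-3 (4 against 19) and IGHV5-16 (4 against 7), also at 0.481. Without anti-CTLA-4 mouse 5, which held the 4 IGHV6-3 clonotypes of its group, IGHV6-3 passed (adjusted p = 0.0366, edgeR). Leaving out that mouse sets its group to 0, so this pass follows from the exclusion. Of the 19 isotype clonotypes, 13 came from isotype mouse 2, where single lineages held 7 and 5.

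The V genes of the 321 IgG3-led clonotypes were compared with those of the 2182 clonotypes led by IgG2b or IgG2a/c, with the mouse as a block. IGHV4-1 was the only V call of 105 that passed (0.952% called). It made up 5.26%, 3.08%, 6.67%, 7.69% and 7.14% of IgG3-led clonotypes in isotype mice 1 to 5, and 1.89%, 0%, 2.04%, 10.5% and 4.76% in anti-CTLA-4 mice 1 to 5. Among IgG2b- or IgG2a/c-led clonotypes it made up 0% in 6 mice and 0.281% to 0.943% in the other 4. The IgG3-led share was higher in 9 of 10 mice. In anti-CTLA-4 mouse 2, 0 of 38 clonotypes allows a share of up to 7.89%.

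The numbers behind this were 12 IGHV4-1 clonotypes of 321 and 5 of 2182, or means of 4.91% ± 3.20 and 0.221% ± 0.330 (SD, n = 10). The log2 difference was 3.75 with an SE of 0.80 (edgeR, adjusted p = 0.000345), and it ranged from 3.52 to 4.12 when each mouse was left out. It was 2.27 with an adjusted p of 0.101 when TMM scaling was applied, and 2.19 with an adjusted p of 0.687 over lineages, so the call rests on clonotypes as the unit and on unscaled totals. With TMM scaling 5 V calls passed (4.76% called) and with DESeq2 11 passed, all lower in IgG3-led clonotypes, whereas none passed as lower in the unscaled edgeR fit. The scaling moved the median log2 difference of all 105 V calls from -0.51 to -1.13.

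IGHV6-3 had the next smallest p, with 20 of 321 and 14 of 2182 clonotypes and a log2 difference of 2.42 with an SE of 0.87, which did not pass (adjusted p = 0.290, edgeR). Single lineages of isotype mouse 2 held 7 and 5 of the 20. IGHV1-20 followed with 5 and 1 clonotypes (adjusted p = 0.856, edgeR). In the other direction, IGHV1-81 had 0 and 31 clonotypes, IGHV14-3 had 0 and 25, and IGHV1-75 had 1 and 54, each with an adjusted p of 0.447 in edgeR. At 321 clonotypes a number of 0 allows a share of up to 0.935%.

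**Figure D5:**
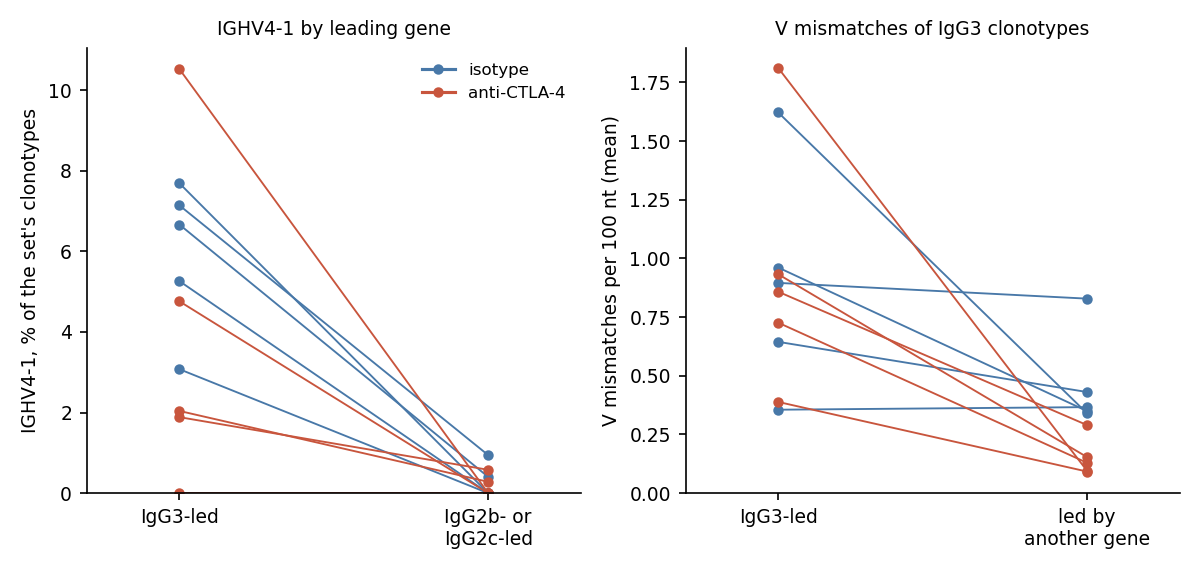
Left, IGHV4-1 as a percentage of the IgG3-led and of the IgG2b- or IgG2a/c-led clonotypes of each mouse (labelled IgG2c); right, mean V mismatches per 100 nucleotides of IgG3 clonotypes led by IgG3 or by another gene. Lines join the values of 1 mouse (blue isotype, red anti-CTLA-4). The IgG3-led value is higher in 9 of 10 mice in both panels.

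IGHV4-1 had 16 IgG3 clonotypes in all (2.60% of IgG3), in 9 of 10 mice, against 0.527% of IgM, 0.337% of IgG1, 0.387% of IgG2b and 0.436% of IgG2a/c clonotypes. They were small apart from 1, the clonotype of anti-CTLA-4 mouse 1 with 364 IgG3, 153 IgM and 7 IgG2b counts and no V mismatch. The other 15 had 1 to 19 IgG3 counts. IgG3 led 12 of the 16 and IgM the other 4, 11 were seen as IgG3 alone, and 11 carried V mismatches, up to 9.

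The junctions of these clonotypes resembled each other across mice. Of the 16, 13 had a junction of 39 nucleotides, as did 22.4% of the 1080 IGHV4-1 IgM clonotypes. The codons 5 to 8 read GGN, TAN, TAN and GGN in 10 of them, 9 of which are printed above, against 23 of 1080 IgM clonotypes (2.13%), 1 of 323 IgD, 1 of 8 IgG2b, 0 of 6 IgG2a/c and 0 of 4 IgG1 clonotypes. The pattern was searched on the coding strand in frame, in junctions of 39 nucleotides only. The D call of each of the 9 printed junctions named IGHD1-1 or an IGHD2 gene, in some beside others. The pattern can therefore hold D gene bases. With any V gene it occurred in 1.63% of IgG3 and 0.106% of IgM clonotypes, and in IgG3 all of those used IGHV4-1.

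The 10 matching junctions were all different, formed 9 lineages and lay in 8 mice, 5 isotype and 3 anti-CTLA-4. Pairs from different mice differed at 2 to 15 of the 39 bases, and the pair of isotype mouse 5 differed at 1. They joined the same V gene to all 4 J genes. Between some libraries the codons at the same positions differed, such as GGTTACTACGGG in isotype mouse 1 and GGTTACTATGGC in anti-CTLA-4 mouse 3. Isotype mouse 4 and anti-CTLA-4 mouse 4 had the same bases there as isotype mouse 1. Of the 10, 8 had V mismatches, 8 were IgG3-led and 7 were seen as IgG3 alone. The pair of isotype mouse 5 was IgM-led, with 183 and 36 IgM counts beside 4 and 1 IgG3 counts. Because the pattern was chosen from these junctions, its share in IgG3 is a description and was not tested.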

How the data were processed

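RNA of dissociated deep cervical nodes was made into receptor libraries with a kit that adds molecular identifiers, per the labels. The authors deposited 1 table per mouse in AIRR layout with a whole-number count per assembled sequence, per the file headers. No label names the aligner, the germline set or the genome build. V gene names, 74 of 74, matched the RefSeq table of GRCm38.p6, used for names alone. Counts were used without normalisation. Mouse values were compared by exact permutation of the difference of means between groups, and by exact sign flips between subclasses, with Benjamini-Hochberg adjustment within families (13 group measures in families of 4, 3, 4 and 2, and 15 subclass tests). V genes were tested with edgeR 4.0.16 in R 4.3.3 on clonotype numbers, with DESeq2 1.42.0 as an alternative. The planned filterByExpr and TMM left 0 and 2 V calls and could not be fitted, so the filter was left out. TMM was left out too, since in simulated data it gave more false calls in the comparison by leading gene, though not between groups. Fits with and without TMM were each scored on 1 simulated set of their own. Numbers per V gene were drawn independently, without lineages. The simulation therefore cannot show which scaling suits these data. Both choices were made after the data were seen. The threshold was an adjusted p of 0.05. Equal replicate numbers were not treated as pairs in the main tests. Deviations of V gene use correlated at -0.123 to 0.140 between same-numbered mice, which cannot show whether these mice were handled together. Named V calls were those past a threshold, the 3 with the smallest p in each direction otherwise, the most used, a B-1 list and all J genes. Named clonotypes were the leading one of each mouse, the 5 largest IgG3-led and the 5 in most mice. The leading clonotype of isotype mouse 5 and 1 IGHV4-1 junction are not reported here. Lineages and clonotypes discussed beyond these were chosen after their values were seen. The members, lists and measures were chosen with earlier results of these data known. Software was Python 3.11.15 with numpy 2.4.6, pandas 2.3.3 and scipy 1.17.1.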

Additional observations from a re-analysis of the deposited data

Results flagged for a closer look

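Over 13 measures in each group, 26 sets of 5 mice were searched for a mouse that stood apart from its group by Dixon's criterion at 95%, and chance marks about 1 in 20 such sets. In 2 sets a mouse stood apart. The IgG3 share of heavy-chain counts of anti-CTLA-4 mouse 1 was 14.98%, where the next mouse had 3.72%, and the IGHV1-5 clonotype made up 69.9% of its IgG3 counts. The share of IgG3 clonotypes also seen as IgM or IgD was 6.67% in isotype mouse 4, where the next mouse had 32.4%, and this mouse had the fewest IgG3 clonotypes, 15. The same mouse was the lowest of the 10 for IgG2b (2.86% of 70 clonotypes), IgG2a/c (3.13% of 32) and IgG1 (5.71% of 35).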

How the results depend on the processing

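Differences are anti-CTLA-4 minus isotype or IgG3 minus the other subclass, in percentage points unless named. Over 13 group measures 190 alternative values kept their direction and side of the threshold, as did 209 for the subclasses and 232 for V genes. The cause of the changes below was not tested. The IgG3 share of IgG clonotypes turned to -0.286 without clonotypes of count 1 and -0.186 over lineages, and ranged from -0.128 to 2.07 when each mouse was left out. The share also seen as IgM or IgD was 12.9 over lineages (adjusted p = 0.190) and 14.0 with the replicate number as a block (p = 0.0625, the smallest 5 pairs allow), and ranged from 8.27 to 16.8 when each mouse was left out (adjusted p from 0.0238 to 0.0952, exact permutation). The same leave-out ranges were -18.9 to -8.05 for the IgG3-led share, -12.8 to 0.593 for the leading clonotype's share, and -0.0943 to 0.0132 for evenness, which was 0.0279 at equal counts. V mismatches turned to 0.0477 per 100 nucleotides over IgG3-led clonotypes.

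Between subclasses, the share without V mismatch turned to -0.247 against IgG2a/c and -3.34 against IgG1 without clonotypes of count 1, and to -1.76 against IgG1 over clonotypes each subclass led. Against IgG1 it ranged from -0.873 to 2.71 when each mouse was left out. Mismatches per 100 nucleotides turned to -0.0412 against IgG2a/c and -0.0126 against IgG1 over lineages, and 0.0210 against IgG2b over led clonotypes. Over lineages, CDR3 was -0.647 residues against IgG1 (adjusted p = 0.0293, exact sign flips), and the IgM or IgD share was 9.34 above IgG1 (adjusted p = 0.0391). Over led clonotypes that share exceeded IgG2b by 2.68 and IgG2a/c by 0.0656.

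Between groups, 0 or 1 V calls passed when each mouse was left out. The 1 was IGHV6-3 without anti-CTLA-4 mouse 5, the only mouse of its group that held this V gene. IGHV5-16 turned to 0.75 (log2) over lineages and ranged from -3.82 to 2.89 when each mouse was left out, 2.89 without isotype mouse 4. Of IgG3-led against IgG2-led clonotypes, 15 of 54 V calls passed on deposited counts with filter and TMM, 11 with DESeq2, 5 with TMM and 0 of 95 over lineages (4 at an unadjusted p under 0.05, edgeR). With the filter, most planned V gene fits kept too few V calls and were not run. With 15 to 124 IgG3 clonotypes per mouse, shares in the smallest libraries rest on few clonotypes.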

Other observations

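IgG3 was also found in clonotypes that IgE or IgA led. The 12 IgE-led clonotypes lay in isotype mice 3 (5) and 4 (1) and anti-CTLA-4 mice 2 (2) and 5 (4), had 1 to 15 IgG3 counts, a median of 0.0930% of their counts, and 8 of them were also seen as IgM or IgD. The 9 IgA-led clonotypes had 1 to 15 IgG3 counts, and 0 of 9 was seen as IgM or IgD. No IgG3-led clonotype held an IgE count, and 1 of 321 held an IgA count.

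IGHJ1 was used by 23.2% ± 5.81 of IgG3 clonotypes in anti-CTLA-4 mice and 13.3% ± 7.00 in isotype mice (SD, n = 5 each), which was not tested. Clonotypes of 1 lineage each counted in these shares. The other subclasses went the same way, with means of 19.0% and 15.1% for IgG2b, 20.8% and 16.0% for IgG2a/c, and 18.4% and 16.2% for IgG1. Among clonotypes led by IgG2b or IgG2a/c with 1000 or more counts, 38 of 40 in anti-CTLA-4 mice and 15 of 18 in isotype mice held IgG3. After translation of the junction, 3 IgG3 chains with the same V and J genes occurred in several mice from different nucleotide junctions, covering 7 of 615 clonotypes (1.14%), against 0.822% of IgG2b and 1.75% of IgG2a/c clonotypes.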
